A study of Mus musculus with 4 samples.

Results

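Glycolytic isoenzymes and glucose uptake were represented by 10 genes: the glucose transporter gene Slc2a1, the hexokinase genes Hk1, Hk2 and Hk3, the phosphofructokinase genes Pfkl and Pfkp, the aldolase genes Aldoa and Aldoc, and the lactate dehydrogenase genes Ldha and Ldhb. They were taken by gene symbol in the platform annotation and make up 10 of 18193 named genes on the array, with 26 probe sets in all. They were followed in mouse bone marrow cells that form osteoclasts in culture, the multinucleated cells that resorb bone. The donors were C57Bl/6J females, 12 weeks old, and 1 array was hybridised at each of 4 times. Day 1 was marrow on the day of extraction, with no culture. Day 4 cells had spent 3 days with 10% serum plus vitamin D3 at 10 nM. Days 5 and 7 also had M-CSF at 20 ng/ml, a growth factor of macrophages, and RANKL at 40 ng/ml, the signal by which precursors become osteoclasts, with vitamin D3 kept at 10 nM. No array of days 5 or 7 lacked these cytokines, so their effect and that of time in culture cannot be told apart. The labels do not say how many mice or cultures gave each RNA.

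Glycolysis splits glucose into pyruvate in the cytosol and yields ATP without oxygen. Glucose enters through facilitative transporters, of which GLUT1 (Slc2a1) is the widespread form. Hexokinases trap it as glucose 6-phosphate, phosphofructokinase commits it to glycolysis, aldolase cuts the 6-carbon sugar, and lactate dehydrogenase turns pyruvate and lactate into each other. Each of these enzymes exists as several isoenzymes from different genes, and osteoclasts are known to use both glycolysis and mitochondrial respiration. Several of these genes are known targets of the hypoxia-inducible factor HIF-1, which binds DNA at a short core motif.

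The values were MAS5 signals, a linear brightness per probe set, and signals under 32.4 units, the median of all values, were treated as a floor. With 1 array at each time there was no test, and calls of higher or lower stand for changes of 2-fold or more (1 on the log2 scale). Each gene was represented by its brightest probe set (by mean log2 signal over the days), and the other probe sets of the 10 genes are given beside it. Signals of different probe sets cannot be set against each other, so levels are compared between days only. In all, 24 of the 26 probe sets and all 10 representing probe sets were above the floor on all 4 days. As technical measures, the log2 differences of 18 spiked control probe sets had SDs between 0.07 and 0.17 in the 4 comparisons, and those of probe sets of a shared gene a pooled SD of 0.41 for day 4 over day 1, 0.29 and 0.26 for the next 2 intervals and 0.53 for day 7 over day 1. Neither measures variation between cultures. The arrays had trimmed means of 278 to 298 units, which scaling can set and which do not show that the arrays were alike. Their median signals were 38.3, 34.3, 32.3 and 26.2 on days 1, 4, 5 and 7, and 46.6% to 52.6% of their probe sets were above the floor.

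The promoters of the 3 genes called in any comparison, Hk2, Aldoc and Ldhb, are shown with that of Ldha, the isoenzyme gene of Ldhb, as the 250 bases before the annotated start (RefSeq, GRCm38.p6). Capitals mark the letters ACGTG or GCGTG on either strand (CACGT is ACGTG read on the other strand), 2 forms of the core motif of HIF-1 sites. The Hk2 window is chr6:82774455-82774704, minus strand, and the Aldoc window is chr11:78322823-78323072, plus strand. The Ldha window is chr7:46845554-46845803, plus strand, and the Ldhb window is chr6:142507958-142508207, minus strand.
Hk2: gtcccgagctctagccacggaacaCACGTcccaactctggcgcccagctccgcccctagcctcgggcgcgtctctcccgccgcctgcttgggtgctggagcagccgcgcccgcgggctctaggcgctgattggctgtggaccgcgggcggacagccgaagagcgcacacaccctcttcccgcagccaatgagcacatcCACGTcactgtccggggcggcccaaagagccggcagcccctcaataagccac
Aldoc: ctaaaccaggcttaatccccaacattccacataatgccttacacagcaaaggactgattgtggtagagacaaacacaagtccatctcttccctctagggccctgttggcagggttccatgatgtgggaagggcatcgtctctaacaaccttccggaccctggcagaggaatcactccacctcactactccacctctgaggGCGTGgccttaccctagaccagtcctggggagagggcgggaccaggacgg
Ldha: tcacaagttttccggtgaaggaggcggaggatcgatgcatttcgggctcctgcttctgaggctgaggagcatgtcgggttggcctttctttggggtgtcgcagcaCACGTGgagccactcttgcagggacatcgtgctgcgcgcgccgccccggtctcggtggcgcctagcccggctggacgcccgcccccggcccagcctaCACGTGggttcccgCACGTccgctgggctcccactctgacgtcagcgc
Ldhb: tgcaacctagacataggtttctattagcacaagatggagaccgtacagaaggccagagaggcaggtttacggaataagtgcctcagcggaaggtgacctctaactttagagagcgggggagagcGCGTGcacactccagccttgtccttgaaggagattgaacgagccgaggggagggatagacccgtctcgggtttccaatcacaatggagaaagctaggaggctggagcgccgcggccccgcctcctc

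Over the 10 genes, all found in the RefSeq table with 15 annotated starts, ACGTG lay in the window of 6 starts, of 5 genes: Slc2a1, Hk2, Hk3, Aldoa (with 2 overlapping windows) and Ldha. Over all 32851 windows of the same length 16.6% held it. GCGTG lay in 8 of the 15 windows, against 28.2% of all windows. In the windows shown above, Hk2 had ACGTG at 2 places and Ldha at 3, and at 2 of the Ldha places the letters read CACGTG, which matches on both strands. Aldoc and Ldhb, the genes called higher on day 7, had no ACGTG in their windows and 1 match to GCGTG. The windows shown for Aldoc and Ldha are the first of 2 listed starts of each gene, and the second Ldha window held no ACGTG and 1 GCGTG. A match of letters is not evidence of binding.

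The mixture of cells differed between the arrays, and in whole cultures fewer cells of a type and less RNA per cell cannot be told apart. The labels call every sample primary osteoclasts, but on day 1 only 6 of 10 osteoclast marker genes were above the floor, with Calcr, Dcstamp, Ocstamp and Oscar under it, and on days 5 and 7 all 10 were. The summed signal of these 10 genes was 9542, 28748, 47098 and 55556 on days 1, 4, 5 and 7, and was in the same order of days as Aldoc and Ldhb. Acp5, Ctsk and Mmp9 made up most of the sum on day 7, and Itgb3 did not follow it, at 1156, 1257, 677 and 610. The summed signal of 10 neutrophil marker genes was 116508, 73680, 40866 and 6208 on the same days, with 9 of the 10 still above the floor on day 7. Hk2 was in the same order of days, as were, outside the 10 genes, Slc2a3, Pfkfb4 and others, among them Adpgk, Pfkfb3 and Slc2a6. The representing Pfkl probe set held this order narrowly, at 273 on day 4 and 271 on day 5. Its other probe sets were higher on day 5 than on day 4. Of 6 erythroid marker genes on the array 5 were above the floor on day 1 and none on later days, and Bpgm, an enzyme gene of red cells, was 43.2-fold lower on day 4 than on day 1. The sum of 9 stromal and osteoblast genes was 3284 on day 1 and 22020 to 38837 later, highest on day 5, the day on which Slc2a1 was highest. The sum of 8 macrophage marker genes was 36233 on day 1 and 62157 to 65127 later. The summed signal of 5 B cell genes was 4561, 1642, 347 and 132, in that same order, and that of 6 cycling genes 18662, 14015, 21743 and 22070. The part of these differences in cell types in the values of the 10 genes was not tested.

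Slc2a1, the transporter gene, had its highest signal on day 5. Its representing probe set measured 845, 1077, 1358 and 1090 on days 1, 4, 5 and 7. The other 2 probe sets were likewise lowest on day 1 and highest on day 5, with 607, 783, 937 and 681 in one and 378, 475, 550 and 386 in the other. The highest day was thus 1.61-fold, 1.54-fold and 1.45-fold above the lowest, which is under the 2-fold threshold in each probe set. The log2 difference between days 7 and 5 lay between -0.51 and -0.32 over the 3 probe sets. That between days 7 and 1 lay between 0.03 and 0.37, within the spread between probe sets.

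Of the 3 hexokinase genes, Hk2 was called lower on day 7 than on day 1, and Hk1 and Hk3 were not called. Hk2 encodes an isoenzyme that is bound to mitochondria and strongly regulated, and its 1 probe set measured 1708, 1067, 967 and 637 on days 1, 4, 5 and 7. It was 2.68-fold lower on day 7 than on day 1 (log2 difference -1.42), and no single interval reached 2-fold, at 1.60-fold, 1.10-fold and 1.52-fold lower in turn. Each later day was lower than the one before, and the order rests on this 1 probe set.

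Hk1, the broadly expressed hexokinase gene, and Hk3, an isoenzyme gene typical of myeloid blood cells, stayed within a narrower range. Hk1 measured 1206, 781, 846 and 957 on days 1, 4, 5 and 7. Its second probe set, at a lower signal, measured 83.7, 62.8, 75.6 and 70.7 and was likewise highest on day 1 and lowest on day 4. Hk3 measured 2570, 3160, 2210 and 2476 on days 1, 4, 5 and 7, and its second probe set 1737, 1681, 1352 and 1281. The 2 Hk3 probe sets differed in sign in the first interval (0.30 and -0.05) and the last (0.16 and -0.08), while both were lower on day 5 than on day 4 (-0.52 and -0.31). A further probe set names Hk1 together with several ribosomal protein genes and was not used.

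**Figure D1:**
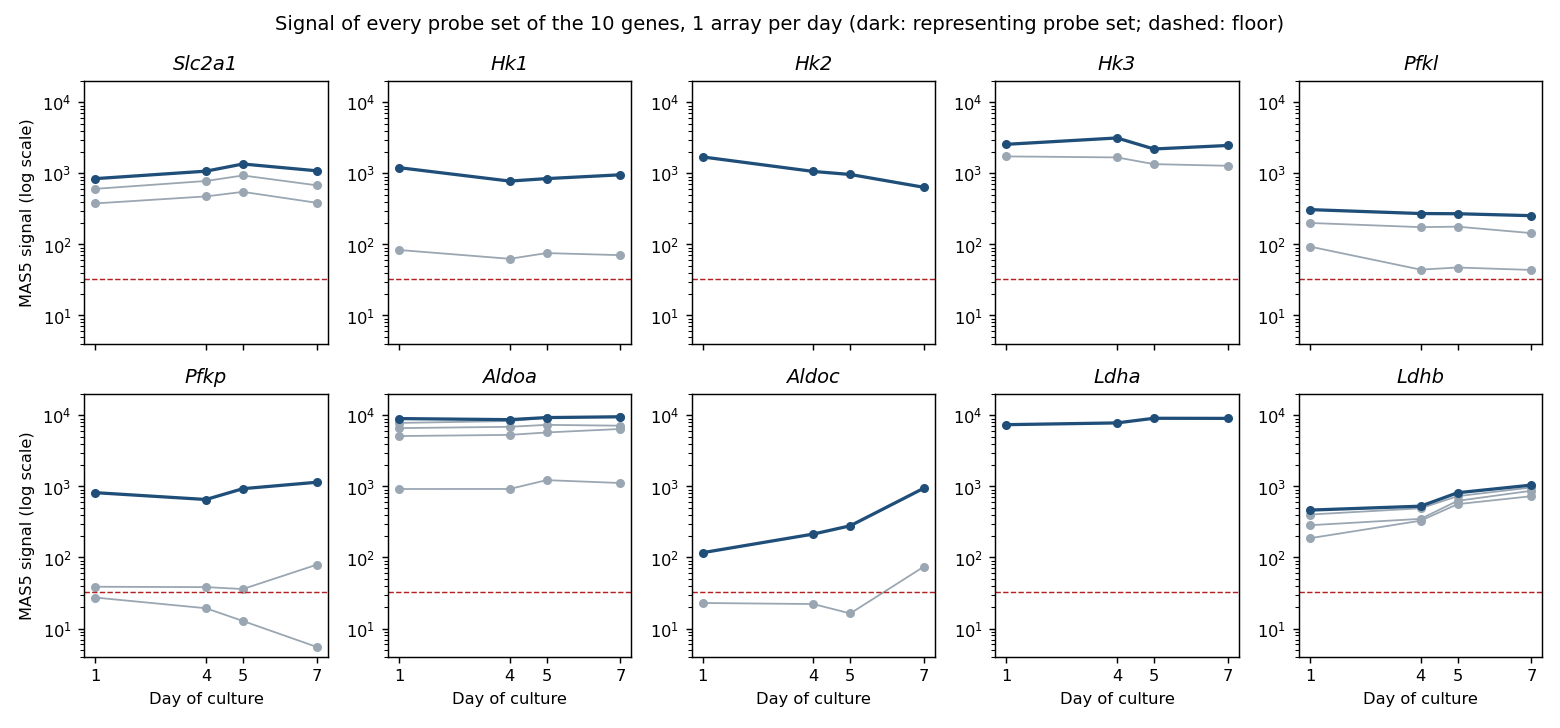
Signal of every probe set of the 10 genes (vertical axis, MAS5 signal, log scale) against day of culture (horizontal axis), with 1 array per day, so that no error bar can be drawn. The dark line is the probe set that represents the gene, grey lines are its other probe sets and the dashed line is the floor of 32.4. Aldoc climbs to 949 on day 7, all 4 Ldhb probe sets are highest on day 7, and Hk2 is lowest on day 7 at 637.

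Of the phosphofructokinase genes, Pfkp had its highest signal on day 7 and Pfkl its lowest. Pfkl, the gene of the liver-type subunit, measured 310, 273, 271 and 254 on days 1, 4, 5 and 7. With the deposited values, all 3 of its probe sets were lowest on day 7 and highest on day 1 (under quantile and median scaling the representing one was higher on day 7 than on day 5), by 1.22-fold, 1.39-fold and 2.13-fold, and the last of these lay close to the floor from day 4 on, at 44.2, 47.4 and 43.8 after 93.3 on day 1. Pfkp, the gene of the platelet-type subunit, measured 818, 655, 931 and 1146 on days 1, 4, 5 and 7. Its log2 difference was 0.49 on day 7 over day 1. A second Pfkp probe set measured 38.8, 38.3, 36.0 and 79.1, and was 2.20-fold higher on day 7 than on day 5. The remaining one was under the floor on all 4 days. The summed signal of 6 platelet marker genes was 16166, 20350, 14711 and 8311 on days 1, 4, 5 and 7, of which Pf4 made up 8027 on day 7, and its part in the Pfkp values was not tested.

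Aldoc carried the largest difference of the 10 genes. It encodes aldolase C, best known from brain, and measured 117, 214, 280 and 949 on days 1, 4, 5 and 7. Day 7 was 3.39-fold above day 5 (log2 difference 1.76) and 8.12-fold above day 1 (3.02). These differences stood above 99.9% of 11611 measured genes on day 7 over day 5 and above 99.0% of 11967 on day 7 over day 1. The second Aldoc probe set was under the floor on days 1, 4 and 5 (22.9, 22.1 and 16.3) and at 74.6 on day 7, so it was at least 2.30-fold higher on day 7 than on either day 5 or day 1.

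Aldoa, the gene of the aldolase found in muscle and most other tissues, was nearly level. Its representing probe set measured 9035, 8726, 9333 and 9570 on days 1, 4, 5 and 7. All 5 Aldoa probe sets were higher on day 7 than on day 1 with the deposited values, by 1.06-fold to 1.26-fold, but the representing one was lower after quantile normalization (log2 difference -0.06). None reached 2-fold in any comparison. All 5 carry the x_at suffix, which marks probe sets whose probes can match other transcripts. In all, 8 of the 26 probe sets carry it, among them the representing one of Hk3 and some of those of Ldhb.

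Ldhb, the gene of the heart-type subunit of lactate dehydrogenase, was higher at every later day in all 4 of its probe sets. The representing probe set measured 465, 528, 816 and 1045 on days 1, 4, 5 and 7. The other 3 measured 187, 330, 564 and 729, then 402, 492, 730 and 968, and last 285, 350, 628 and 870. On day 7 the representing probe set was 2.25-fold above day 1 (log2 difference 1.17), and the others 3.90-fold, 2.41-fold and 3.06-fold. On day 5 it was 1.55-fold above day 4, with 1.48-fold to 1.79-fold in the others. Ldha, the gene of the muscle-type subunit, measured 7414, 7849, 9124 and 9092 on days 1, 4, 5 and 7 in its 1 probe set, 1.23-fold higher on day 7 than on day 1.

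Isoenzyme genes were then set against each other by their differences, not their levels, since a scaling factor applied to a whole array cancels in such a contrast. Aldoc exceeded Aldoa by 2.94 on the log2 scale on day 7 over day 1, and by between 2.69 and 2.94 over the 5 pairs of probe sets above the floor. All 5 pairs share the representing Aldoc probe set, so this range shows the spread of the Aldoa probe sets only. The second Aldoc probe set was under the floor on day 1 and is in no pair. Its own log2 difference was at least 1.20. In the 3 successive intervals the contrast was 0.92, 0.29 and 1.73, and it had that sign in all 5 pairs except in 1 pair on day 5 over day 4. Ldhb exceeded Ldha by 0.87 on day 7 over day 1, with a range of 0.87 to 1.67 over 4 pairs and a positive sign in all 4 pairs in each of the 4 comparisons. The contrast of Hk2 with Hk1 was -1.09 on day 7 over day 1 (-1.18 with the second Hk1 probe set), and that of Hk2 with Hk3 was -1.37 (-0.98 with the second Hk3 probe set). Hk2 exceeded Hk3 on day 5 over day 4, by 0.37. Pfkp exceeded Pfkl by 0.77 on day 7 over day 1, with 0.77 to 2.12 over 6 pairs. On day 4 over day 1 the sign of this contrast changed with the probe sets: it was -0.14 for the representing ones and positive in 4 of the 6 pairs. In the next interval, day 5 over day 4, it was 0.52 and negative in 3 of the 6.

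**Figure D2:**
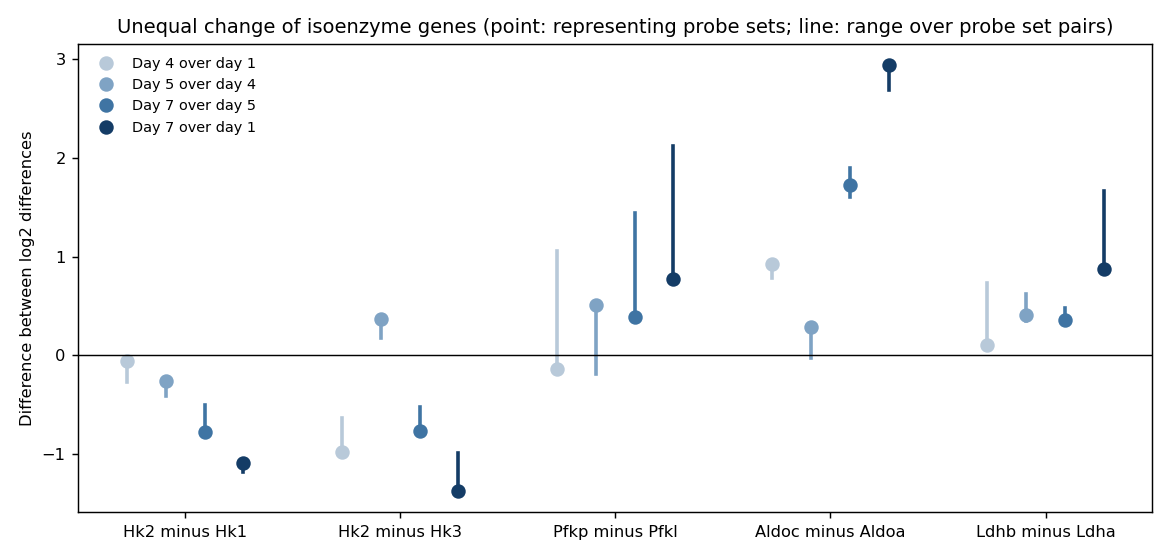
Difference between the log2 differences of 2 isoenzyme genes (vertical axis) for 5 pairs of genes (horizontal axis) and the 4 comparisons (shades). Points are the representing probe sets and lines span all pairs of probe sets above the floor on both days. The contrast of Aldoc with Aldoa reaches 2.94 and that of Ldhb with Ldha 0.87 on day 7 over day 1, and that of Hk2 with Hk1 -1.09.

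On day 4 against day 1, vitamin D3 culture against fresh marrow, none of the 10 genes was 2-fold higher or lower. The background over 11981 measured genes was 10.0% called higher and 8.65% called lower. The 10 genes had a median log2 difference of 0.02, against 0.06 for all measured genes, and 5 lay above 0 and 5 below. Aldoc was the highest at 0.87 and Hk2 the lowest at -0.68, followed by Hk1 at -0.63. One Pfkl probe set that does not represent the gene was 2.11-fold lower.

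Day 5 against day 4, the interval in which M-CSF and RANKL were first present, again had none of the 10 genes past 2-fold, where 2.02% of 11804 measured genes were called higher and 4.04% lower. Their median was 0.17, against 0.06 for all genes. Ldhb had the highest difference (0.63), then Pfkp (0.51), Aldoc (0.39) and Slc2a1 (0.34), and Hk3 the lowest (-0.52).

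Day 7 against day 5, the later interval with both cytokines, had Aldoc called higher and none of the 10 called lower, against 0.853% of 11611 measured genes called higher and 5.84% lower. The median of the 10 genes was 0.10 and that of all measured genes -0.11. The second largest difference was that of Ldhb (0.36), and Hk2 (-0.60) and Slc2a1 (-0.32) were lowest. The split of all called genes depended on scaling here: 12.7% of them were higher with the deposited values, 31.6% after quantile normalization and 27.2% after scaling to the same median. The median of all genes moved to 0.03 and 0.06 with these scalings.

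Day 7 against day 1 compares the end of the culture with fresh marrow. Aldoc and Ldhb were called higher and Hk2 lower, 2 and 1 of 10, where 12.7% of 11967 measured genes were called higher and 16.2% lower, and the 10 genes had a median of 0.19 against 0.01. Both shares of members are small numbers near the background. Of all called genes 43.9% were higher with the deposited values, 56.2% after quantile normalization and 53.1% after median scaling, with medians of all genes of 0.17 and 0.14. Under both scalings the differences of Aldoc were 3.21 and 3.16, those of Ldhb 1.23 and 1.31, and those of Hk2 -1.38 and -1.28. The signs of Hk3 and Aldoa in this comparison, of Pfkl and Aldoa between days 5 and 4, and of Pfkl and Ldha between days 7 and 5 changed with 1 of these scalings or both.

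**Figure D3:**
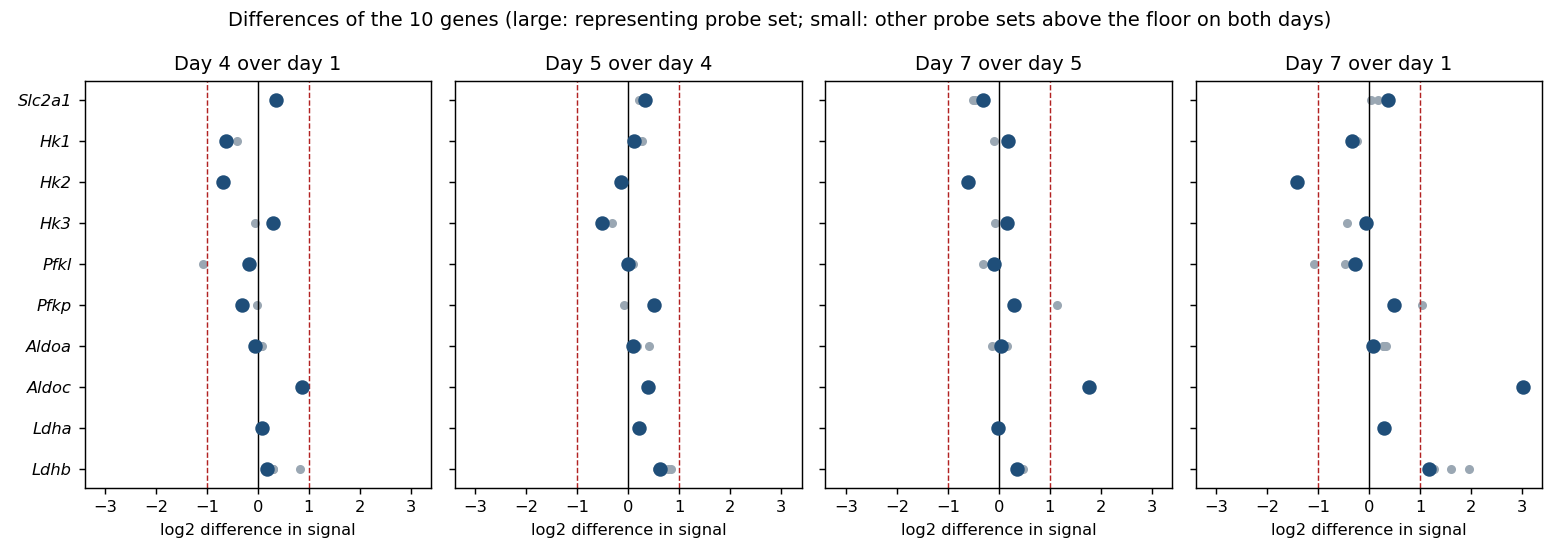
log2 difference in signal (horizontal axis) of the 10 genes (rows) in the 4 comparisons (panels), positive where the later day is higher. Large points are the representing probe sets, small points the other probe sets above the floor on both days, and dashed lines mark 2-fold. Aldoc passes 2-fold at 1.76 between days 7 and 5 and at 3.02 between days 7 and 1, Ldhb on day 7 over day 1 at 1.17 and Hk2 at -1.42.

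Other genes of glucose metabolism were taken from 7 lists. Their values are those of the representing probe set, with the range over probe sets above the floor on both days where it crosses 2-fold or spans over 1.5 times. The shares of all measured genes called on day 7 over day 1, 12.7% higher and 16.2% lower, are the background of each count. Of 18 other glycolytic enzyme genes, 13 had a probe set that names 1 gene and 10 were above the floor on day 7 or day 1. On day 7 over day 1, 1 was called higher and 3 lower, with a median of 0.30 against 0.01 for all measured genes. Tpi1, of triose phosphate isomerase, measured 3118, 4211, 6123 and 7179 on days 1, 4, 5 and 7, and was 2.30-fold higher on day 7 than on day 1, with 2.13-fold to 2.30-fold over its 3 probe sets. Pgk1, of phosphoglycerate kinase, differed by between 1.44-fold and 2.97-fold over 3 probe sets and by 1.44-fold in the representing one, which is not called. Bpgm, the gene of the enzyme that makes 2,3-bisphosphoglycerate in red cells, was 31.4-fold lower, at 246 on day 7 against 7724 on day 1. Adpgk, an ADP-dependent glucokinase gene, was 10.3-fold lower (5.30-fold in its other probe set) and Ldhc, a lactate dehydrogenase gene known from testis, at least 21.8-fold lower.

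Slc2a1 was 1.29-fold higher on day 7 than on day 1, under the threshold. Of 8 other measured hexose transporter genes none was called higher and 3 were called lower (median -0.13), against 12.7% and 16.2% of all measured genes. With a floor of 8.43, or with 16 added in place of a floor, 2 were called higher. Slc2a3, the gene of the high-affinity transporter GLUT3, measured 5482, 1904, 740 and 186 on days 1, 4, 5 and 7, and was 29.4-fold lower on day 7 than on day 1. A second Slc2a3 probe set above the floor gave 31.0-fold, and the other 2 of its 4 probe sets were not above the floor on both days. Slc2a6, a transporter gene of the same family, measured 117 on day 7 against 521 on day 1 and was 4.47-fold lower, and Slc2a4, of the insulin-responsive transporter, was at least 2.90-fold lower.

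Among genes that handle pyruvate and lactate, 6 of 13 measured were called higher on day 7 over day 1 and none lower, against 12.7% and 16.2% of all measured genes, with a median of 0.99. Pdk1, whose kinase switches off pyruvate dehydrogenase, measured 466, 680, 1375 and 2293 on days 1, 4, 5 and 7. It was 4.93-fold higher on day 7 than on day 1, and between 2.81-fold and 6.06-fold over its 3 measured probe sets. Pdk4, a second such kinase gene, was at least 3.61-fold higher. Of the genes of pyruvate dehydrogenase itself, Dlat was 2.05-fold higher. Pdhb was 2.18-fold higher but 1.49-fold in its second probe set, and Pdha1 had a log2 difference of 0.99 and was 2.83-fold higher in its second probe set, so these 2 calls depend on the probe set. Slc16a7, of the monocarboxylate transporter MCT2, was 2.52-fold higher, and the log2 difference of Slc16a1, of MCT1, was -0.41.

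The phosphofructokinase-2 genes set the level of fructose 2,6-bisphosphate, the main activator of phosphofructokinase. Their list also held Tigar, of a phosphatase of fructose 2,6-bisphosphate. Of the 4 measured genes of this list, Tigar among them, 2 were called lower on day 7 over day 1 and none higher. Pfkfb4 measured 1537, 652, 334 and 315 on days 1, 4, 5 and 7 and was 4.89-fold lower. Pfkfb3 measured 572, 478, 274 and 182 and was 3.15-fold lower. Of 6 measured pentose phosphate genes 1 was called lower, Rpia at 2.49-fold, and none higher.

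The regulators and the hypoxia-responsive genes outside glycolysis were called in both directions. Of 11 measured regulators 1 was called higher and 3 lower on day 7 over day 1 (median -0.48). Epas1, the gene of HIF-2 alpha, was 4.13-fold higher, Egln3, of a prolyl hydroxylase that marks HIF for degradation, at least 13.4-fold lower, and Mlxip, of a glucose-sensing factor, 2.48-fold lower. Vhl was 2.09-fold lower but 1.35-fold in its second probe set, so this call depends on the probe set. Hif1a itself measured 7079, 7364, 6201 and 3919 on days 1, 4, 5 and 7, with a log2 difference of -0.85 on day 7 over day 1, and a second probe set was past 2-fold at -1.30. Of 11 hypoxia-responsive genes 2 were called higher, P4ha2 at 5.42-fold and Adm at at least 4.64-fold, and 4 lower (median -0.39): Ero1a at 4.20-fold (1.74-fold to 4.20-fold over 3 probe sets), Ankrd37 at 2.95-fold, Kdm3a at 2.87-fold and Vegfa at 2.52-fold.

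Several of these genes were called on day 4 over day 1, before RANKL was added. In that interval Bpgm was lower by the 43.2-fold given above, Ldhc 11.8-fold lower and Adpgk 4.24-fold lower among the glycolytic enzymes, Pfkfb4 2.36-fold lower and Slc2a3 2.88-fold lower (4.19-fold in its second probe set). Of the other hexose transporters, Slc2a4 was at least 2.90-fold lower and Slc2a10 at least 2.07-fold higher. Rpia, of the pentose phosphate genes, was 2.50-fold lower. Tigar, of a phosphatase of fructose 2,6-bisphosphate, was 2.30-fold higher (1.45-fold to 2.30-fold over 3 probe sets). Of the 11 regulators, Epas1 was 5.70-fold higher, Myc 2.14-fold higher and Egln3 4.25-fold lower. Of the 11 hypoxia-responsive genes, 3 were called higher, Adm by a log2 difference of at least 3.17, P4ha2 at 5.78-fold and P4ha1 at 2.32-fold (1.82-fold in its second probe set), and 3 lower, Ankrd37 at at least 3.81-fold, Ero1a at 3.15-fold and Ndrg1 at 2.61-fold (1.90-fold to 2.61-fold over 4 probe sets). The shares of all measured genes called in this interval were 10.0% higher and 8.65% lower. Among the genes for lactate and pyruvate, 2 of 12 were called higher on day 4 over day 1, Pcx at 2.76-fold and Pdk4 at at least 3.66-fold. In the next interval 1 of 13 was called, Pdk1 at 2.02-fold higher (1.24-fold to 2.10-fold over 3 probe sets), and in the last none of 12. The background shares of all measured genes were smaller there for both directions. They were 2.02% higher and 4.04% lower in the next interval, and 0.853% higher and 5.84% lower in the last. Slc2a3 was called lower in each interval, by 2.57-fold in the second and 3.98-fold in the last. None of the 10 other glycolytic enzymes was called in either of these 2 intervals. On day 7 over day 5, Txnip, of a protein that restrains glucose uptake, was 2.36-fold higher, and Adm, Ddit4 and Vegfa were 2.58-fold, 2.54-fold and 2.12-fold lower. The second probe sets of Txnip (1.73-fold) and Vegfa (1.66-fold) did not reach 2-fold. The 3 hypoxia-responsive genes called lower became 2 after quantile or median scaling and with the mean over probe sets.

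**Figure D4:**
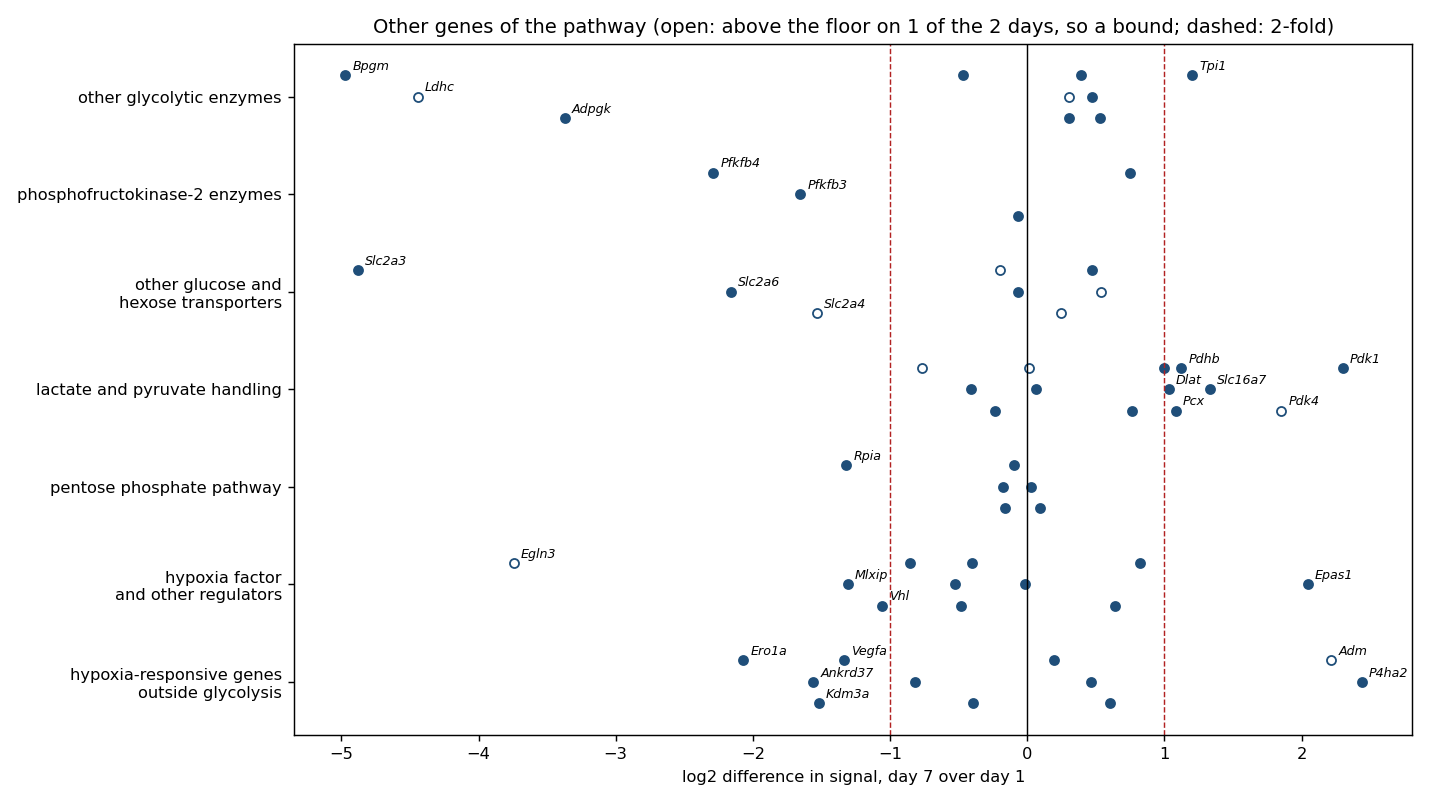
log2 difference in signal between day 7 and day 1 (horizontal axis) of the measured genes of the 7 lists (rows). Open points were above the floor on 1 of the 2 days and are bounds, dashed lines mark 2-fold, and genes past 2-fold are named. Slc2a3 and Bpgm lie farthest to the left and P4ha2 and Pdk1 farthest to the right, at 5.42-fold and 4.93-fold.

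Genes with the most similar pattern were sought for the 3 members whose highest day was at least 2-fold above the lowest, by the distance between log2 signals over the 4 days after centring each gene on its own mean, among 10034 genes above the floor on all days. The nearest to Ldhb were Lsm4 at a distance of 0.04 on the log2 scale, Cenpb at 0.05 and Dera at 0.07. Those nearest to Hk2 were Zbtb40, Pds5a and Senp1, all at 0.07. Those nearest to Aldoc were farther away: Ang at 0.35, Mgst3 at 0.47 and Cox7a1 at 0.48. With 4 arrays such distances describe these values only.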

How the data were processed

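Expression arrays were hybridised with labelled RNA, 250 ng for each of 4 arrays. The deposited values were linear signal intensities per probe set, made by the authors with GCOS 1.4 and MAS5 per the submitters' processing notes. The scaling target and genome build are not given in the sources used here. Of 45037 probe sets other than controls, 34945 named 1 gene in the platform annotation, 932 several and 9160 none, and 34741 of these names matched RefSeq. Signals under 32.4, the median of all values, were raised to it, and log2 was taken. A gene under the floor on both days was not measured, and one under it on 1 day gives a bound ("at least"). Python 3.11.15, numpy 2.4.6, pandas 2.3.3 and matplotlib 3.10.9 were used. The counting of 2-fold calls was run on simulated arrays, which tests the calculation and not the calls made here. With 1 array per day, no test, SD or p-value was possible, and the number of arrays limits the precision. Alternatives were other floors, scalings and ways of using probe sets.

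The members, gene lists and markers were chosen with earlier results of these data known. All members were named, and of each list up to 4 genes with the largest difference in a comparison. Hif1a, Pdha1, Pgk1, Dlat, Slc16a1, Kdm3a and Vegfa were also named on day 7 over day 1, and P4ha1 and Ndrg1 on day 4 over day 1, chosen after their values were seen. Similar patterns were sought for members whose highest day was at least 2-fold above the lowest.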

Additional observations from a re-analysis of the deposited data

How the results depend on the processing

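Floors of 8.43 and 68.9 (percentiles 25 and 60), 16 added to each signal in place of a floor, quantile normalization, scaling to the same median and the mean over probe sets left the counts of members past 2-fold as reported in all 4 comparisons. Neither floor could change the counts, since every representing probe set was above 68.9 on all 4 days. Leaving out probe sets with an s_at, x_at or a_at suffix kept 6 of the 10 genes. Members called lower on day 4 over day 1 were then 1, Pfkl, in place of 0. On day 7 over day 1, 1 was called higher in place of 2, since Ldhb has no probe set left, and 2 were called lower in place of 1, Pfkl with Hk2. Over these alternatives Aldoc ranged from 1.20 to 3.21 on day 7 over day 1 and from 1.20 to 1.94 on day 7 over day 5 (log2), past 2-fold in all 7. Its mean over probe sets was 2.11 and 1.48, and the values of 1.20 are bounds from the dimmer probe set. Hk2 ranged from -1.42 to -1.28 on day 7 over day 1 in 7 alternatives and Ldhb was at least 1.14 in 6. Hk2 has 1 probe set, which the suffix filter keeps, so neither that filter nor the mean over probe sets could change its value. Pfkl was -1.09 on day 7 over day 1 without those probe sets. Of 262 member values under an alternative, 8 moved by more than the pooled SD over probe sets of the same gene. The 262 include 40 values under each of the other floors, which could not move. Of 392 counts of the pathway lists, 46 moved by over 1.5 times, most often for the hexose transporters. Over all genes on day 7 over day 5, 99 were called higher and 678 lower, against 195 and 423 after quantile normalization and 183 and 491 after median scaling. No paired analysis was possible because the labels give no replicate numbers and each day has 1 array, which also leaves no replicate to leave out. No difference here can be set against variation between cultures, and signals near the floor, as in the second Aldoc and Pfkp probe sets, are the least certain.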
